A study of Mus musculus with 13 samples.

Results

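In cultured mouse olfactory basal cells, 45971 regions carried the histone mark H3K27me3 in both libraries of the study, and CBX8 peaks were counted in them by the width and by the enrichment of the mark. The regions are the peaks of H3K27me3 replicate 1 that overlapped a peak of replicate 2 by at least 1 bp, out of 68881 replicate 1 peaks on chromosomes 1 to 19 and X. The width classes were fixed at under 1 kb (26619 regions), 1 to 3 kb (14289 regions), 3 to 10 kb (4587 regions) and 10 kb or more, called over 10 kb here (476 regions). The study mapped H3K27me3, H3K27ac and the proteins CBX8 and RING1B by chromatin immunoprecipitation with sequencing (ChIP-seq) and asked which genes Polycomb repressive complex 1 (PRC1) binds in olfactory neuron precursors. The cells were wild-type C57BL6 basal cells taken from adult olfactory epithelium by their surface c-KIT. They were grown on gelatin with EGF, FGF2, heparin, BMP4 and SB431542. H3K27me3 replicate 1 came from line 1 at passage 12 and replicate 2 from line 2 at passage 11, while CBX8 replicate 1 came from line 2 at passage 19 and replicate 2 from line 3 at passage 14. RING1B came from line 1 at passage 12 and line 2 at passage 19, and H3K27ac from line 2 at passage 13 and line 3 at passage 14. No culture gave both H3K27me3 and CBX8 at the same passage, and line 1, whose peaks define the regions, gave no CBX8, so antibody and culture cannot be told apart.

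H3K27me3 is set by Polycomb repressive complex 2 and marks silent genes, above all those of developmental regulators. CBX8 is a chromodomain subunit of canonical PRC1 that can bind this mark, and RING1B is the ubiquitin ligase of the complex. Domains of the mark in mammals range from short patches to whole gene clusters such as Hox, and gene starts rich in the dinucleotide CG are common sites of Polycomb recruitment. H3K27ac, on the same lysine, marks active promoters and enhancers.

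The peak lists give no read counts, so depth is unknown. CBX8 replicate 1 listed 9902 peaks and replicate 2 listed 77130, and the absence of a peak means only that none was listed. Each fold is the authors' enrichment of a peak over its control and is compared here only within a list. H3K27ac was listed in both libraries at the starts of 6 of 10 basal cell markers (Krt5, Krt14, Sox2, Itgb1, Hes1 and Icam1) and of 7 of 15 markers of other cells, among them Omp and Col1a1, and not in both at those of Kit, Lgr5 and Trp63. The part of other cells in the results was not tested.

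The sequences before the starts of 5 genes are shown as examples. The first 3 lie in regions with some of the strongest CBX8, and the last 2 in regions over 10 kb with no CBX8 peak. Each line gives the 250 bases before a RefSeq start (GRCm38.p6, the assembly of mm10), 5′ to 3′ on the strand of the gene, with every CG in capitals.
Tlx3: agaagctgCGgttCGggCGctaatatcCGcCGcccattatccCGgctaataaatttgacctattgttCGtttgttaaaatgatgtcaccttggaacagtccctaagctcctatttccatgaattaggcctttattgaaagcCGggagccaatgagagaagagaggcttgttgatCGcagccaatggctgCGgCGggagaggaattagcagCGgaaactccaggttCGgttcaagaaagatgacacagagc
Sp9: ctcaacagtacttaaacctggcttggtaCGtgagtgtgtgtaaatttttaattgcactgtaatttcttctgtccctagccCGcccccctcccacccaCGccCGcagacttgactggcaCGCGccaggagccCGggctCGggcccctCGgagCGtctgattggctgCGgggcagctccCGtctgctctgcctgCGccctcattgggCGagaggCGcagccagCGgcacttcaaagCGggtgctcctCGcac
Tal1: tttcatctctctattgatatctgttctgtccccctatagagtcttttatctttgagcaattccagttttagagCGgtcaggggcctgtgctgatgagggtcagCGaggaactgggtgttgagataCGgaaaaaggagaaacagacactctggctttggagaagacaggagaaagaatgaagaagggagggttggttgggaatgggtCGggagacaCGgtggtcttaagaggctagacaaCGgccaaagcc
Sox8: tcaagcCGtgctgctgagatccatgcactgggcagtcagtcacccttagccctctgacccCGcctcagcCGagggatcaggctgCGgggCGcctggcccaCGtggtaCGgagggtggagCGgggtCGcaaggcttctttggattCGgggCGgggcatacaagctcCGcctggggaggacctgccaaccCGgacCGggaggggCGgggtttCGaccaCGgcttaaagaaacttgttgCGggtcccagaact
Rph3a: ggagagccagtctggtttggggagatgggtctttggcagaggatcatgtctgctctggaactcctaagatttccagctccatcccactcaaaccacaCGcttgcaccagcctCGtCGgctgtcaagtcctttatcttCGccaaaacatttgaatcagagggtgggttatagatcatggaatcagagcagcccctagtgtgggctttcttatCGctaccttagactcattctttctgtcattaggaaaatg

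The Tlx3 stretch (chr11:33203589-33203838, minus strand) holds 13 CG and lies in a region of 14317 bp. The Sp9 stretch (chr2:73271676-73271925, plus strand) holds 18 CG in a region of 12132 bp, and that of Tal1 (chr4:115056176-115056425, plus strand) holds 6 CG in a region of 5942 bp. Without CBX8, the stretch of Sox8 (chr17:25570687-25570936, minus strand) also holds 18 CG, and that of Rph3a (chr5:121010093-121010342, minus strand) holds 5 CG. The number of CG before the start thus did not by itself separate these 5 genes. Tlx3, Sp9, Sox8 and Tal1 encode transcription factors, and Rph3a encodes rabphilin, a protein of synaptic vesicles.

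The wider the H3K27me3 region, the more often it held CBX8. A peak of both CBX8 libraries was present in 1.21% of regions under 1 kb, 3.70% of those of 1 to 3 kb, 17.5% of those of 3 to 10 kb and 52.9% of those over 10 kb, against 4.15% of all 45971 regions. The exact 95% (Clopper-Pearson) interval was 1.08 to 1.34% for the narrowest and 48.4 to 57.5% for the widest class. These intervals cover counting error only, and regions of 1 library are not replicates, so no p is given. In CBX8 replicate 1 the shares were 1.80, 4.93, 19.6 and 55.5% from the narrowest to the widest class, against 5.11% of all regions. In CBX8 replicate 2 they were 8.66, 20.9, 52.9 and 89.5%, against 17.7% of all regions. Every class was higher than the next narrower class in both libraries. The mean of both libraries was 5.23% ± 4.85 (SD, n = 2) under 1 kb and 72.5% ± 24.1 (SD, n = 2) over 10 kb.

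The shares of the libraries came close to each other once their lists had the same length. When the replicate 2 list was shortened to its 9902 peaks of highest fold, the length of the replicate 1 list, its shares were 1.36, 5.17, 21.3 and 55.7% across the width classes. Those values lie within 2 percentage points of replicate 1 in each class. The regions themselves were shared less. Under 1 kb, 363 regions held a peak of the shortened list and 480 one of replicate 1, but 154 held both. Over 10 kb these counts were 265, 264 and 217. This shortening was chosen after the data had been seen. The share also depended on which H3K27me3 library set the width. With the peaks of H3K27me3 replicate 2 as regions, the 4 classes had CBX8 of both libraries in 0.454, 1.34, 7.25 and 29.2%, the last from 2460 regions. With replicate 1 peaks up to 3 kb apart joined first, they had 1.35, 4.08, 8.97 and 28.7%. The order of the classes was the same in both cases.

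**Figure D1:**
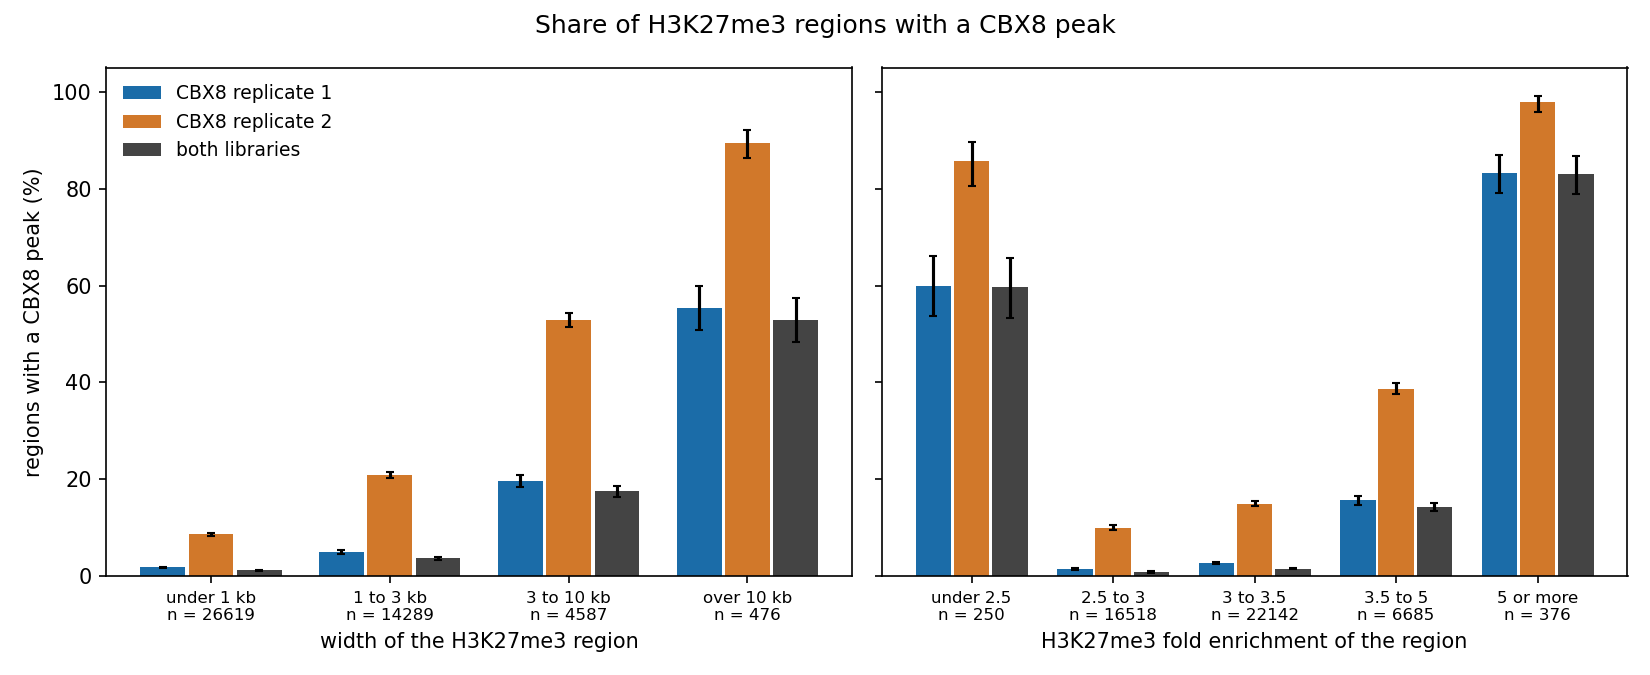
Share of H3K27me3 regions with a CBX8 peak (y axis, percent) by region width (left) and by H3K27me3 fold enrichment (right), for each CBX8 library and for both together; bars are shares and whiskers exact 95% intervals that cover counting error only. The share of both libraries is 1.21% under 1 kb and 52.9% over 10 kb, and by fold it is high at both ends, 59.6% under 2.5 and 83.0% at 5 or more.

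A wide region offers more bases in which a peak can fall, so the peaks were also counted per Mb by their midpoints. CBX8 replicate 1 had 31.0 peaks per Mb in regions under 1 kb, 38.9 in those of 1 to 3 kb, 87.3 in those of 3 to 10 kb and 214.4 in those over 10 kb. CBX8 replicate 2 had 138.5, 154.7, 234.0 and 361.4 peaks per Mb in the same classes. Outside every H3K27me3 peak the densities were 1.54 and 22.4 per Mb, and where only 1 H3K27me3 library had a peak they were 9.74 and 75.3 per Mb. Every class was denser than the next narrower class. The step from under 1 kb to 1 to 3 kb was the smallest, from an exact 95% Poisson interval of 28.2 to 34.1 to one of 36.4 to 41.5 in replicate 1, and from 132.4 to 144.8 to one of 149.8 to 159.8 in replicate 2. The share of bases under a CBX8 peak was 0.734% under 1 kb and 14.5% over 10 kb in replicate 1, and 3.09% and 24.8% in replicate 2.

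Strong CBX8 peaks lay almost all in the H3K27me3 regions, and many of them in the widest. The 45971 regions cover 2.64% of the 2570.5 Mb between the first and last listed peaks of the chromosomes. They held 49.4% of all CBX8 replicate 1 peaks and 17.5% of all replicate 2 peaks. Of the peaks of fold 20 or more they held 494 of 513 (96.3%) in replicate 1 and 1056 of 1131 (93.4%) in replicate 2. The 476 regions over 10 kb, 0.288% of that length, held 49.1% and 43.1% of these strong peaks.

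Counted over all regions of a width class together, CBX8 peaks were densest far from the edges. These counts pool regions of different width, and a region of 10 kb has no bases deeper than 5 kb. In replicates 1 and 2, CBX8 peaks covered 9.43 and 18.2% of bases in regions of 10 to 15 kb. In those of 20 to 30 kb they covered 21.9 and 33.85%. Differences within and between regions were therefore not separated. In regions over 10 kb, replicate 1 had 88.2 peaks per Mb in the outermost 0.5 kb on each side, 117.6 from 0.5 to 1.5 kb, 196.0 from 1.5 to 5 kb and 295.3 deeper than 5 kb. Replicate 2 had 277.3, 264.7, 340.0 and 438.5 peaks per Mb in these zones. Within 1 kb outside the edge of the same regions, replicate 1 had no peak in 0.252 Mb, which allows up to 14.7 per Mb, and replicate 2 had 35.7 per Mb. The density outside was thus near that of the flanks farther away, 4.54 and 44.3 per Mb at 5 to 20 kb. At 3 to 10 kb the strongest peak lay in the central 50% of the region in 61.1% (replicate 1) and 59.1% (replicate 2) of occupied regions. Over 10 kb these shares were 62.1% and 61.0%. In the narrower classes they were below 50%, with 42.7% and 44.3% at 1 to 3 kb and 40.6% and 34.7% under 1 kb.

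**Figure D2:**
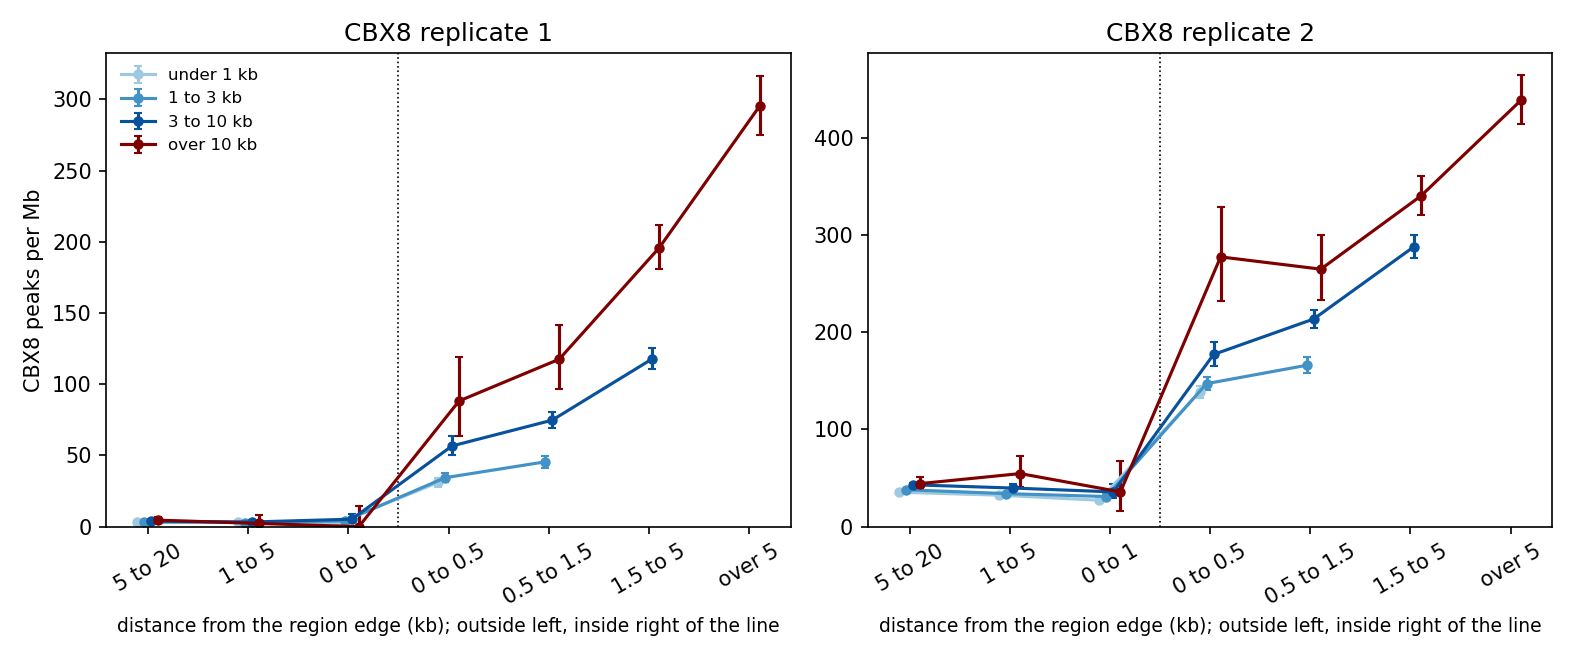
CBX8 peaks per Mb (y axis) by distance from the edge of the H3K27me3 region in kb (x axis; flanks left and inside right of the dotted line) for the 4 width classes in each CBX8 library; whiskers are exact 95% Poisson intervals. In replicate 1, regions over 10 kb have 88.2 peaks per Mb at the edge and 295.3 deeper than 5 kb. The flanks of all classes stay at or below 5.25 per Mb in replicate 1 and range from 27.15 to 54.55 per Mb in replicate 2.

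The strength of CBX8 followed width less evenly than its presence did. Among occupied regions, the median fold of the highest CBX8 peak was 5.38 under 1 kb, 5.93 at 1 to 3 kb, 6.92 at 3 to 10 kb and 14.2 over 10 kb in replicate 1. In replicate 2 the medians were 4.78, 5.15, 5.52 and 8.46. The upper quartile over 10 kb was 36.8 in replicate 1 and 45.3 in replicate 2, against 6.71 and 5.55 under 1 kb. A highest peak of fold 10 or more was present in 58.3% and 46.7% of occupied regions over 10 kb, and in 7.08% and 4.60% of those under 1 kb. Wide regions also held more peaks from which to take the highest, 6.02 and 6.30 per occupied region over 10 kb against 1.08 and 1.07 under 1 kb. Over all their peaks the medians were closer, 8.41 and 6.62 over 10 kb against 5.37 and 4.78 under 1 kb. With the peaks of H3K27me3 replicate 2 as regions, the median highest CBX8 fold over 10 kb was 6.43 in replicate 1 and 5.52 in replicate 2.

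**Figure D3:**
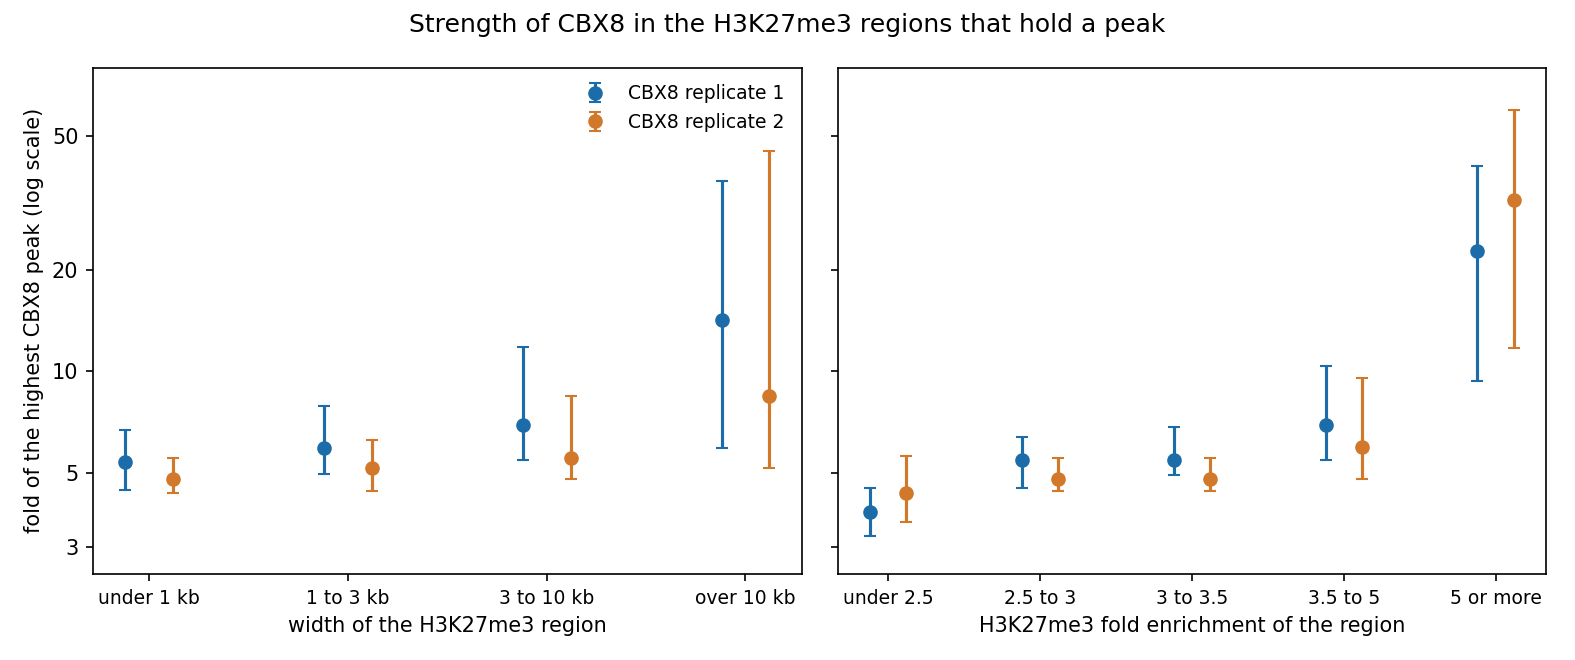
Fold of the highest CBX8 peak per occupied region (y axis, log scale) by region width (left) and H3K27me3 fold (right); points are medians and whiskers the lower and upper quartile over regions for each CBX8 library. Medians over 10 kb are 14.2 and 8.46, and at H3K27me3 fold 5 or more 22.7 and 32.4.

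By the enrichment of H3K27me3 itself, CBX8 was most frequent where the mark was strongest. Of the 376 regions of H3K27me3 fold 5 or more, 83.2% held a peak of CBX8 replicate 1, 97.9% of replicate 2 and 83.0% of both. The share with both was 14.3% at fold 3.5 to 5, 1.55% at 3 to 3.5 and 0.890% at 2.5 to 3. The limits 3 and 3.5 were chosen after the distribution of folds had been seen. In 4 groups of equal size by fold, the share was 2.29, 0.792, 1.44 and 12.1% from the lowest to the highest fold. The median highest CBX8 fold was 5.44 and 4.78 at H3K27me3 fold 3 to 3.5, 6.92 and 5.98 at 3.5 to 5, and 22.7 and 32.4 at 5 or more. Strong regions were also mostly at genes, with 85.6% annotated by the authors to a promoter, against 13.1% at fold 3 to 3.5.

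The 250 regions of lowest enrichment, under fold 2.5, went against this order. They held CBX8 of both libraries in 59.6% of cases, with an interval of 53.2 to 65.7%. Their CBX8 was weak, with median highest folds of 3.82 and 4.36 and none of fold 10 or more in replicate 1. H3K27ac was listed in 66.4% and 57.2% of them, against 6.31% and 5.50% of regions of fold 3 to 3.5. Of these 250 regions, 45 (18.0%) touched bases listed in all 8 ChIP libraries, against 0.108% at fold 3 to 3.5. Without them the share with both CBX8 libraries was 50.7%, and with the shortened CBX8 replicate 2 list it was 12.8%. Among the peaks of H3K27me3 replicate 2, taken by their own fold, a value under 2.5 was common. CBX8 of both libraries was present in 1.45% of those 15811 peaks, against 0.435% at fold 2.5 to 3 and 2.36% at 3 to 3.5. By width, it was present in 0.881% of such peaks under 1 kb, 2.95% at 1 to 3 kb, 51.4% of 74 at 3 to 10 kb and 4 of 4 over 10 kb. The share at the lowest fold was thus above that of the next class in both H3K27me3 libraries, and much smaller in replicate 2.

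Width and fold overlapped, with a rank correlation of 0.308 over all 45971 regions, so width was also read within classes of fold. At fold 3.5 to 5, CBX8 of both libraries was present in 2.54, 12.2, 29.9 and 42.8% of regions from the narrowest to the widest class. At fold 3 to 3.5 the shares were 0.701, 1.81 and 4.34% up to 10 kb, and 6 of 60 regions over 10 kb, with an interval of 3.76 to 20.5%. At fold 5 or more they were 57.1% of 14, 83.8% of 37, 75.6% of 201 and 97.6% of 124 regions. Per region, the order by width therefore held within the 2 middle classes of fold. It broke at 3 to 10 kb in the strongest class, where its interval overlaps that of 1 to 3 kb. Per base it did not hold in the middle classes. At fold 3.5 to 5, CBX8 peaks covered 1.78, 4.03, 5.54 and 4.17% of bases in replicate 1. In replicate 2 they covered 6.08, 12.25, 14.75 and 11.43%. At fold 3 to 3.5 the covered shares were 0.486, 0.551, 0.628 and 0.535% in replicate 1. Those of replicate 2 were 2.54, 2.73, 2.56 and 3.02%. A region of 1 to 3 kb with fold 5 or more held CBX8 more often than a region over 10 kb with fold 3.5 to 5, 83.8% against 42.8%, with intervals of 68.0 to 93.8% and 37.0 to 48.7%.

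**Figure D4:**
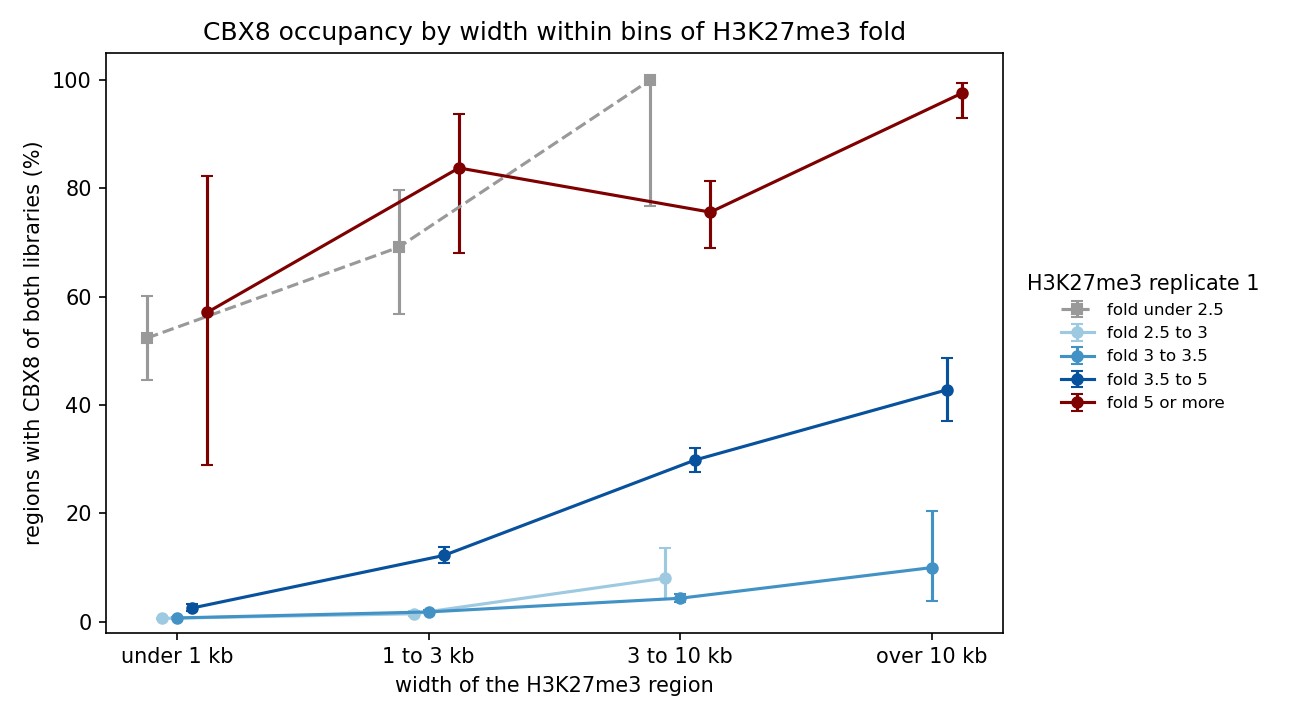
Share of regions with CBX8 of both libraries (y axis, percent) by width class (x axis), with a line for each class of H3K27me3 fold in replicate 1; whiskers are exact 95% intervals that cover counting error only. At fold 3.5 to 5 the share goes from 2.54% to 42.8%, while at fold 5 or more it is 57.1% or higher in every width class.

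Once a region held CBX8, its strength had a higher rank correlation with the strength of the mark than with its width. Over the 1906 regions with both CBX8 libraries, the rank correlation of the highest CBX8 fold with H3K27me3 fold was 0.572 in replicate 1 and 0.623 in replicate 2, and with width 0.366 and 0.403. Inside the class over 10 kb (252 regions) it was 0.685 and 0.684 with H3K27me3 fold, and 0.205 and 0.195 with width. Inside the class under 1 kb (321 regions) it was 0.666 and 0.596 with fold, and 0.109 and 0.133 with width. The highest folds of the 2 CBX8 libraries correlated at 0.813 over all 1906 regions and at 0.923 over 10 kb. These are descriptions across regions that share their libraries. The classes are cut by width and not by fold, which narrows the range of width within them. Width also agreed less between the 2 H3K27me3 libraries within these classes. Over all regions over 10 kb, width correlated between them at 0.384 and fold at 0.827. Under 1 kb these values were 0.0392 and 0.141, and over all 45971 regions 0.315 and 0.319. The part of this in the lower correlations with width was not tested.

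The boundary at 10 kb was no step. Regions of 9 to 10 kb held CBX8 of both libraries in 37.2% of 129 cases and those of 10 to 11 kb in 33.0% of 103. On either side of 3 kb the shares were 9.54% (2.7 to 3 kb) and 11.3% (3 to 3.3 kb), and on either side of 1 kb 1.68% and 1.82%. Beyond 10 kb the share was 45.1% at 10 to 15 kb, 64.4% at 15 to 20 kb, 73.0% at 20 to 30 kb and 69.2% of the 13 regions of 30 kb or more, where the intervals of the last 3 bands overlap.

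The widest region of all held little CBX8. It spans 96022 bp (chr18:60975283-61071304) with the starts of Slc6a7, a proline transporter, Cdx1, a homeobox factor, and Pdgfrb, a growth factor receptor. Its highest CBX8 folds were 4.92 and 6.25, and CBX8 peaks covered 0.201% and 2.29% of it. The next region, 89476 bp with the starts of Hoxb2 to Hoxb9 (chr11:96268162-96357637), had 72 and 73 CBX8 peaks of up to 82.6 and 81.7 fold that covered 58.5% and 69.4% of it. The third, 87267 bp (chr8:123537266-123624532), holds 48 annotated rRNA genes, of the n-R5s series in RefSeq, and reached CBX8 folds of 8.90 and 10.7. Repeated genes such as these share reads between copies, so their values are uncertain. The Hoxc region of 43980 bp (chr15:102959512-103003491) had highest folds of 69.2 and 71.7, and the Pax2 region of 40892 bp (chr19:44731289-44772180) 58.4 and 75.4. The Hoxc region touched bases listed in all 8 ChIP libraries. The 5 widest regions thus differed more than 10-fold in their highest CBX8 peaks, with H3K27me3 folds of only 4.37 to 6.09.

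The strongest CBX8 over 10 kb lay at genes of transcription factors, at a transporter and at a vitamin D enzyme. Tlx3, a homeobox factor of sensory neurons, had highest folds of 102 and 98.2 in a region with H3K27me3 folds of 5.81 and 7.44 in replicates 1 and 2 of the mark. Its homologue Tlx2 had 97.8 and 96.7. Slc32a1, the vesicular transporter of GABA and glycine, had 120.6 and 96.0, and the homeobox pair Hmx3 and Hmx2 had 111 and 94.2. Nr5a1, the steroidogenic factor, had 93.5 and 94.2 with no RefSeq start inside the region. Pfdn4 and Cyp24a1 shared a region with 85.6 and 95.3, Foxb2 had 83.6 and 80.6, and Sp9 had 78.2 and 85.3. RING1B was listed in both libraries in each of these regions, with folds of 38.2 to 69.7 in replicate 1.

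Of the 476 regions over 10 kb, 252 held CBX8 of both libraries, 174 of replicate 2 alone, 12 of replicate 1 alone and 38 none. The median H3K27me3 fold was 4.97 with both libraries, 3.78 with replicate 2 alone, 3.59 with replicate 1 alone and 3.54 with none. The median widths were 14337 bp with both and 11228 bp with none, in a class with a lower limit of 10 kb. RING1B was listed in replicate 1 in 82.5, 21.8, 8.33 and 0% of the 4 groups and in replicate 2 in 97.2, 61.5, 66.7 and 15.8%, highest with both CBX8 libraries and lowest with none in each. The group with both libraries thus had the highest median fold of the mark, while the median with replicate 1 alone was near that with none.

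**Figure D5:**
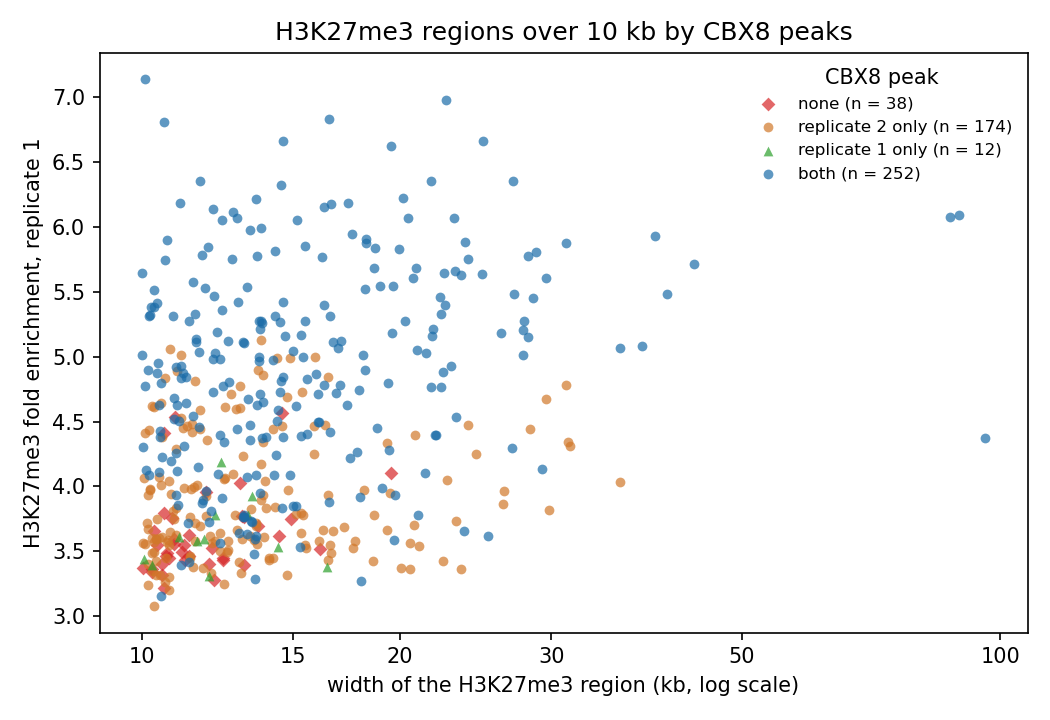
H3K27me3 fold in replicate 1 (y axis) against width in kb (x axis, log scale) for the 476 regions over 10 kb; each point is a region, with colour and shape for its CBX8 peaks. Regions with both libraries (n = 252, median fold 4.97) reach the highest folds, and those with none (n = 38, median fold 3.54) lie low and mostly near 10 kb.

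Gene starts were more frequent where wide regions held CBX8. A protein-coding start lay inside 71.4% of the regions over 10 kb with both libraries and inside 31.6% of those with none. Conversely, 66.9% of the 269 regions over 10 kb with a start held CBX8 of both libraries, against 34.8% of the 207 without. At 3 to 10 kb these shares were 39.2% (462 of 1179) and 10.04% (342 of 3408), at 1 to 3 kb 18.4% and 2.66%, and under 1 kb 4.76% and 1.17%. The order by width thus held both with and without a start inside. The motif CG was counted on the 300 bases around each start (250 before, 50 after), where it reads the same on both strands. The median ratio of observed to expected CG was 0.745 for the 162 starts in regions over 10 kb with both libraries, 0.602 for the 68 with replicate 2 alone and 0.343 for the 10 with none. Starts called CG-rich (GC of 50% or more and a ratio of 0.6 or more) made up 101 of 162, 34 of 68 and 3 of 10 in these groups, against 45.6% of all 21044 starts. In the sequences shown, Tlx3, Sp9 and Tal1 had ratios of 0.905, 0.826 and 0.647, Sox8 without CBX8 had 0.647 and Rph3a 0.384. The strongest CBX8 peak over 10 kb lay within 2 kb of a start in 23.9% and 22.3% of occupied regions, where 13.2% and 11.9% of their bases lie. At 3 to 10 kb these shares were 37.3% and 27.05%, against 28.15% and 21.3% of bases. The narrower classes had no such excess. At 1 to 3 kb the shares were 28.1% and 18.2%, against 27.95% and 18.4% of bases. Under 1 kb they were 16.7% and 9.33%, against 17.7% and 9.53%.

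Of the 38 wide regions without CBX8, 31.6% were annotated to a promoter, against 81.0% of the 252 with both libraries. The widest was 19514 bp in an intron of Rbfox3, an RNA-binding protein of mature neurons (chr11:118560384-118579897), with H3K27me3 folds of 4.10 and 3.73. Others lay near Mir326 (16156 bp), at Elfn2 (14911 bp), and in an intron of Zbtb16, a zinc finger repressor (14576 bp), and between genes near Twist2 (13648 bp), Kif26a (13162 bp), Rhcg (13155 bp) and Lmx1a (13095 bp). The region annotated to Nnmt (14445 bp) lies in an intron, far upstream of that gene. Sox8 alone of these 10 had a protein-coding start inside (13037 bp, H3K27me3 folds of 4.03 and 3.88), and RING1B was listed there only in replicate 2, at 4.82. The H3K27me3 folds of the 10 ranged from 3.40 to 4.56 in replicate 1, below the 4.71 to 6.35 of the 10 regions with the strongest CBX8.

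Several of the narrow regions with the strongest CBX8 were pieces of a longer stretch of the mark. Under 1 kb the highest folds, 118 and 92.3, belonged to a piece of 905 bp near Igf2bp3 (chr6:49217488-49218392), an RNA-binding protein of fetal tissue, and another piece of 972 bp nearby reached 41.5 and 49.3. Pieces of 4174 and 4203 bp in the same stretch reached 78.6 and 72.8, and 73.0 and 79.5. A piece of 283 bp at Alx1 had 67.2 and 60.7, and a piece of 911 bp at Shox2 had 52.4 and 60.6. The Shox2 piece touched bases listed in all 8 ChIP libraries, as did 0.124% of all regions under 1 kb. At Rnf220, pieces of 555 and 2347 bp were covered by the same CBX8 peak, 50.7 and 85.3. Of the 30 regions under 1 kb whose CBX8 reached fold 10 in both libraries, 25 lay within 3 kb of another replicate 1 peak and 18 lay under a replicate 2 peak of 3 kb or more. Over all regions under 1 kb these shares were 64.8% and 44.9%, and over the 321 with any CBX8 of both libraries 60.4% and 35.5%. In the wider classes, regions with CBX8 of fold 10 in both libraries lay within 3 kb of another peak about as often as all regions did, 74.7% against 75.5% at 1 to 3 kb and 86.6% against 85.3% at 3 to 10 kb.

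At 1 to 3 kb the strongest were Tbx20, a T-box factor (74.5 and 91.6), a region annotated to AI646519 (54.4 and 67.7), regions near Raet1a (65.1 and 54.2) and Rasgrf1 (73.2 and 50.5), and Rnf220. At 3 to 10 kb they were Tal1, a blood lineage factor (94.5 and 89.4), a distal region 92512 bp from Mir148a (97.4 and 85.4), Nkx3-2 (77.6 and 80.4) and the pieces at Igf2bp3. Each of these is as strong as many regions over 10 kb, whose upper quartiles were 36.8 and 45.3. The region near Raet1a touched bases listed in all 8 ChIP libraries. The regions of highest H3K27me3 fold without CBX8 were mostly small. They were 3884 bp at Grwd1 (5.67), 192 bp near Bnip2 (5.24), 854 bp at Rbpms (5.22), 344 bp in Plcl1 (5.21) and 244 bp near Alx1 (5.18). That of Plcl1 had only 2.32 in H3K27me3 replicate 2.

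Read by gene, 2687 of 21112 protein-coding genes had their start in a region, and for 863 of them (32.1%) that region held CBX8 of both libraries. By the width of the region the share was 5.11% of 274 genes under 1 kb, 18.7% of 919 at 1 to 3 kb, 39.3% of 1187 at 3 to 10 kb and 68.4% of 307 over 10 kb. Genes with their starts in the same region share its values.

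Developmental factors held CBX8 in nearly all of their regions. Of 39 Hox genes, which pattern the body axis, 38 started in a region, and 37 of these had CBX8 of both libraries, among them all 30 in regions over 10 kb and 7 of 8 at 3 to 10 kb. Of 92 other developmental transcription factors, 75 started in a region and 71 had both libraries, with 45 of 47 over 10 kb, 20 of 21 at 3 to 10 kb and 6 of 7 at 1 to 3 kb. The transcription factors of the olfactory neuron lineage had 21 of 32 in a region and 15 with both, 9 of 11 over 10 kb, 6 of 7 at 3 to 10 kb and 0 of 3 at 1 to 3 kb. Ebf3, which acts with its relatives in olfactory neuron differentiation, had 70.0 and 67.4 in a region of 20143 bp. Nhlh2 had 56.4 and 60.6 in only 3463 bp, Neurog2 had 54.6 and 59.6 in 9518 bp, and Ebf1 had 51.9 and 73.9 in 13720 bp. Ebf4, in 7131 bp, had no CBX8 and had H3K27ac in both libraries (3.90 and 3.40).

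Among neuronal effector genes, CBX8 of both libraries was present for 3 of 16 immature neuron genes with a start in a region, for 2 of 8 mature neuron genes and for 9 of 27 synapse genes (33.3%), against the 32.1% of all such genes. Of 24 immature neuron genes 16 started in a region, and the 3 with both were Ina, an intermediate filament (8.97 and 11.0 in 5058 bp), Kirrel2, an axon sorting adhesion molecule (6.27 and 20.2 in 16089 bp), and Elavl3, a neuronal RNA-binding protein (4.45 and 10.7 in 6933 bp). Tubb3, a neuronal tubulin, in 4213 bp, and Dbn1, an actin-binding protein, in 4693 bp, had none. Of 24 genes of mature olfactory sensory neurons 8 started in a region and 2 had both, Gnal, the olfactory G protein (4.94 and 8.09), and Pde4a (5.09 and 4.41). Of 43 synapse and excitability genes 27 started in a region and 9 had both, with Slc32a1 above, and with Gad1 (29.7 and 71.7 in 11859 bp) and Gad2 (27.9 and 46.7 in 8637 bp), which make GABA, and Scn1a, a sodium channel (13.4 and 25.3 in 1137 bp). Slc17a7, the vesicular glutamate transporter, had none in 7424 bp, and Camk2a, a kinase of synapses, none in 7443 bp.

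At 3 to 10 kb, 2 of 10 immature neuron genes and 3 of 14 synapse genes had both libraries, against 7 of 8 Hox genes, 20 of 21 other developmental factors and 39.3% of all genes in that class. In the other classes the synapse genes had both in 0 of 2 cases under 1 kb, 3 of 6 at 1 to 3 kb and 3 of 5 over 10 kb, where all genes had 5.11, 18.7 and 68.4%. The median H3K27me3 fold of the genes in regions was 3.97 for immature neuron genes and 4.13 for synapse genes, against 5.48 for the other developmental factors and 6.09 for Hox genes. The lists therefore differed in the strength of the mark as well, and its part was not tested.

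Signalling genes of development had 41 of 68 in a region and 23 with both, 6 of 7 over 10 kb and 13 of 23 at 3 to 10 kb. Over all protein-coding genes, 12.7% started in a region, and 32.1% of these had both. Among all genes the share with both was 68.4% over 10 kb and 39.3% at 3 to 10 kb. Wnt1 had 18.8 and 21.3 in 22294 bp, Fgf9 had 30.7 and 28.0 in 6285 bp, Gdf6 had 22.5 and 36.4 in 9091 bp, and Aldh1a2, which makes retinoic acid, had 20.7 and 61.0 in 4387 bp with an H3K27me3 fold of 6.82. Wnt10a (7531 bp) and Fgf17 (3837 bp) had none. Of 28 basal cell and progenitor genes 7 started in a region and 4 of these 7 had both. Pax6 had 16.9 and 25.4 in 20259 bp, Lgr5 had 10.4 and 11.8 in 6381 bp, Mycn had 7.42 and 18.4 in 3378 bp and Nes had 6.92 and 5.15 in 3826 bp. Icam1, with 1739 bp of the mark, had none.

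Among markers of other cell types 12 of 32 started in a region and 5 had both (41.7%), against 32.1% of all genes in regions. Those with both included Pdgfra, a mesenchymal receptor (35.4 and 56.7 in 8998 bp), and Cdx2, an intestinal factor (23.2 and 75.8 in 19644 bp). Twist2 (5.44 and 9.20 in 3746 bp) and Pdgfrb in the region of 96022 bp also had both. Sftpc, a lung surfactant gene, had none in 10623 bp, and Des, a muscle filament gene, none in 4167 bp. Of 1011 olfactory receptor genes 19 started in a region and 0 had both, and 3 had CBX8 of replicate 2, while Olfr1412 (3699 bp) and Olfr284 (3322 bp) had none. Of 28 Polycomb genes only Phf19, a PRC2 cofactor, started in a region, of 1817 bp, with no CBX8 and with H3K27ac in both libraries. None of 32 cell cycle genes, 29 housekeeping genes and 398 vomeronasal and taste receptor genes started in a region.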

How the data were processed

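The authors' peak lists of 8 ChIP-seq libraries were used, with 2 libraries per antibody. The submitters' processing notes name MACS2 2.1.1.20160309, BWA 0.7.12, bcl2fastq 2.17 and Trim Galore 0.4.3, and build mm10. The control of each list is not given in the sources used here, and peak names of CBX8 replicate 2 and of both H3K27ac libraries read "combined" with no explanation, so pooling there is unknown. The deposited fold enrichment per peak is a linear ratio over control. The deposited −log10 q-value, starting at 1.01 in the H3K27me3 lists and at 2.02 in the CBX8 lists, served for stricter thresholds and to order peaks of equal fold. With no counts deposited, depth is unknown.

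Peaks on chromosomes 1 to 19 and X were overlapped by at least 1 bp in Python 3.11.15 (pandas 2.3.3, numpy 2.4.6, scipy 1.17.1, matplotlib 3.10.9), with code tested on simulated intervals. Shares have exact 95% Clopper-Pearson intervals and densities exact Poisson intervals. No p was computed, since there are 2 libraries per antibody and regions are not replicates. Whether libraries are independent cultures of each line is as the labels give it. Gene starts came from a RefSeq promoter table of GRCm38.p6 (17273 protein-coding genes) and otherwise from the RefSeq 5′ end with the strand of the deposited annotation, for 21112 of 21627 genes.

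Named genes are the 5 widest regions, the 10 with the highest CBX8 in the weaker library and the 10 widest without CBX8 over 10 kb, the 5 highest in CBX8 in each other width class, the 5 of highest H3K27me3 fold without CBX8, and of each list up to 4 with CBX8 of both libraries and up to 2 without. Some genes that this rule picks are not reported here. Rph3a, shown for its sequence, was chosen after its values were seen. The regions, lists and classes were chosen with earlier results of these data known. Alternatives were stricter q-values, other overlaps, joined regions, and each library left out.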

Additional observations from a re-analysis of the deposited data

How the results depend on the processing

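No paired analysis was possible because the replicate numbers of H3K27me3 and CBX8 mark different cell lines and the results come from no test. The share of regions with CBX8 of both libraries was higher in each wider class in all 10 settings for which the 4 classes were computed, the main one included. Its value over 10 kb (52.9%) was 69.4% with an H3K27me3 −log10 q of at least 3, 43.5% with a CBX8 −log10 q of at least 5, 28.7% with replicate 1 peaks up to 3 kb apart joined, 45.6% with the shortened CBX8 replicate 2 list and 32.4% with CBX8 peaks of fold 10 or more, the last 2 chosen after seeing the data. Under 1 kb (1.21%) it was 18.2, 0.883, 1.35, 0.579 and 0.113% in the same order, 1.35% with at least 50% of the region covered by replicate 2 and 0.996% with the CBX8 midpoint in the region. At fold 5 or more (83.0%) it was 77.1% with the stricter CBX8 and 60.4% with CBX8 of fold 10 or more. Under fold 2.5 (59.6%) it was 95.5% of 22 regions with the stricter H3K27me3, 50.4% with the stricter CBX8, 50.7% without bases listed in all 8 libraries, 12.8% with the shortened list and 0% with CBX8 of fold 10 or more. Leaving out a library gave 29.2 to 89.5% over 10 kb, 0.454 to 8.66% under 1 kb, 79.9 to 97.9% at fold 5 or more and 1.45 to 85.6% under fold 2.5. In each case the lowest value came without H3K27me3 replicate 1 and the highest without CBX8 replicate 1. With a CBX8 library left out, the share is that of the other CBX8 library alone, which by definition cannot lie below the share of both. The median highest CBX8 fold over 10 kb was 22.8 (replicate 1) and 15.1 (replicate 2) with the stricter CBX8, 16.6 in replicate 2 with the stricter H3K27me3, 6.43 in replicate 1 with joined peaks and 33.1 in replicate 2 with the shortened list. It was 6.43 to 14.2 in replicate 1 with an H3K27me3 library left out and 5.52 to 8.46 in replicate 2. The causes of these shifts were not tested. Width depends on how a library splits the mark, and read depth, which limits which peaks are listed, is unknown.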
